A study of Mus musculus with 8 samples.

Results

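The limb mesenchyme transcription factors followed here in the triceps of Nf1Prx1 mice were Prrx1, Prrx2, Twist1, Twist2, Osr1, Osr2, Tcf4, Tcf7l2, Meox1 and Meox2. These 10 were taken by name as families of factors known from the limb bud, and all were among the 19938 genes of the array table, each as 1 transcript cluster (the set of probes for 1 gene). Total RNA of triceps from 8 mice aged 3 months was measured on Affymetrix Mouse Gene 1.0 ST arrays, 1 array per animal, in 4 controls labelled wild type and 4 mutants labelled Nf1Prx1. Nf1Prx1 mice lack Nf1, which encodes the Ras inhibitor neurofibromin, in cells where a Cre recombinase under the Prx1 (Prrx1) limb enhancer has been active. That enhancer acts in limb bud mesenchyme, the source of muscle connective tissue, tendon and bone, whereas limb muscle fibres come from the somites, so most of the RNA of a whole muscle is from cells that keep Nf1. The labels do not give the Nf1 allele, a strain, the sex or whether the controls carried floxed alleles or Cre.

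In the limb bud, Prrx and Twist proteins keep mesenchyme growing and undifferentiated, Osr proteins mark the progenitors of connective tissue and joints, and Tcf7l2 marks the fibroblasts that pattern muscle. Meox proteins act in somites and in muscle precursors that enter the limb, and Meox2 is also known from blood vessels. In adult muscle several of these factors, not all, are known from interstitial cells, among them the fibro-adipogenic progenitors that make matrix and fat. A pair of names is easily confused. The gene now called Tcf4 encodes the basic helix-loop-helix protein E2-2, a partner of Twist proteins, while the fibroblast marker often written TCF4 is the Wnt effector Tcf7l2, and the RefSeq gene table lists Tcf4 among the synonyms of Tcf7l2.

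The factors read different DNA letters, and sequences before the start of 3 of them are shown because, among the factors with a RefSeq window, these had the largest differences between the groups. Prrx and Meox proteins have homeodomains, for which TAATTA is a typical site, Twist and Tcf4 proteins bind E-boxes, CANNTG, and Tcf7l2 binds sites with CTTTGA. Each window holds the 250 bases before an annotated start in RefSeq, build GRCm38.p6, written 5′ to 3′ on the strand of the gene, with matches to any of these 3 motifs on either strand in capitals.
Prrx1, chr1:163313651-163313900, minus strand: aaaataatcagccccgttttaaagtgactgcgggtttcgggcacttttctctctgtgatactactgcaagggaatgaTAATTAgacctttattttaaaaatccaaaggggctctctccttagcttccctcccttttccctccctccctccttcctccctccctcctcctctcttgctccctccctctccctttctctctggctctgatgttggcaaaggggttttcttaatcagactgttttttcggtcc
Meox2, chr12:37108290-37108539, plus strand: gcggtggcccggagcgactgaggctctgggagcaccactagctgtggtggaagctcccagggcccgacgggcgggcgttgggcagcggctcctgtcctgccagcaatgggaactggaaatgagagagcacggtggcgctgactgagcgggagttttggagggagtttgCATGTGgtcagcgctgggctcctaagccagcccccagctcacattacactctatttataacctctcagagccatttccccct
Tcf7l2, chr19:55741560-55741809, plus strand: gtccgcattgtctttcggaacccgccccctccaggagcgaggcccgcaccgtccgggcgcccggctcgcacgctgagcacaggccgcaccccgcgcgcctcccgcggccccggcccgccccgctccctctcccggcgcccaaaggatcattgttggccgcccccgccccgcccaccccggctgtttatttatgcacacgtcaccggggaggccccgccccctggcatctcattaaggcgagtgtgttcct
The Prrx1 window lay inside the annotated span of the gene, before an internal annotated start, and held 1 TAATTA. The Meox2 window held 1 E-box, and the Tcf7l2 window held none of the 3 motifs in these letters. RefSeq windows were given for 6 of the 10 factors, 7 in all, since Tcf7l2 had an internal start as well. One of the 7 windows held an E-box, 1 held TAATTA and 0 held CTTTGA, against 66.2%, 4.84% and 13.8% of 32851 windows of all genes. E-boxes with different middle letters count as 1 motif here, and no window shown held more than 1 match, so none overlapped.

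The arrays were alike in scale, with medians of 7.23 to 7.39 on the log2 scale and correlations between arrays of 0.928 to 0.994 across genes. The Nf1 level spanned 8.69 to 8.98 among controls and 8.63 to 8.81 among mutants (limma adjusted p = 0.599), and this cluster covers the gene as a whole, so it does not check the deletion. Markers of muscle fibres such as myosins and troponins had a mean level of 12.82 to 13.54 on all arrays, as the tissue label states. Control 1 and Nf1Prx1 1 stood apart, with a mean neutrophil marker level of 9.19 and 9.64 against 6.65 to 7.27 elsewhere and brown adipocyte markers at 9.73 and 9.77 against 7.88 to 8.16. Nf1Prx1 2 stood apart by its correlations with the other arrays, which were 0.9282 to 0.9635. Every other array reached 0.9754 or more with at least 1 array. Xist, the transcript of the inactive X chromosome in females, was at 10.54 or higher on 4 arrays (controls 2 and 4, Nf1Prx1 3 and 4) and at 5.86 or lower on the other 4, so each group held 2 arrays of each kind. Same-numbered arrays deviated together, and a paired fit, in which the replicate number is a block, is given beside the planned unpaired fit. Of these pairs, numbers 2 and 3 join arrays of unlike Xist class. Control 2 was high (10.54) and Nf1Prx1 2 low (5.86), while control 3 was low (5.55) and Nf1Prx1 3 high (10.94). Differences within those pairs, and the paired fit, thus mix Xist class with group.

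Prrx1 was lower and most other factors were higher in Nf1Prx1 triceps. Of the 10 factors, 8 had a higher and 2 a lower mean, while 41.7% of all genes had a higher mean. Several factors had low signals. Over the 8 arrays 7 of the 10 were at or above the median gene level of 7.65, and Prrx2, Twist1 and Osr2 were below it. The control means of Twist2 (7.64) and Meox1 (7.57) were below it too. For these genes the direction is that of a weak signal. In the planned unpaired limma fit, 0 of 10 factors passed an adjusted p of 0.05, and 0.0% of all genes (0 of 19938) did. At an unadjusted p under 0.05 this fit held 3 factors (Prrx1, Tcf7l2 and Meox1) and 13.6% of all genes. In the paired fit Prrx1 alone passed, toward lower levels, where 8.36% of all genes passed in either direction, 3.36% toward higher and 5.0% toward lower levels. The median difference of the 10 factors was 0.29 on the log2 scale, against -0.04 for all genes. Below, a gene is said to have risen or fallen if it passed in the paired fit, whose adjusted p values may be too small because the pairing was read from these arrays.

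**Figure D1:**
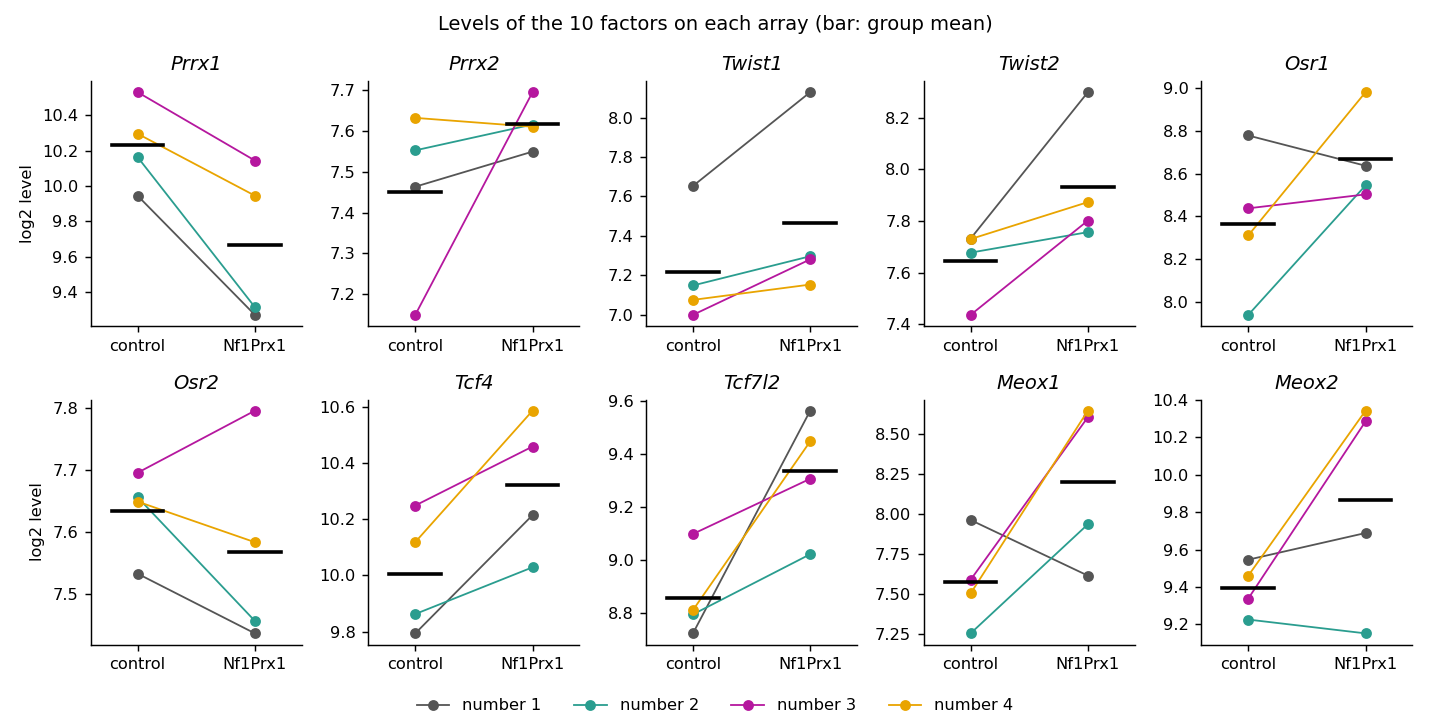
Log2 level of each of the 10 factors (vertical axes, each with its own range) in control and Nf1Prx1 triceps. Points are arrays, lines join arrays of the same replicate number and black bars are group means over 4 arrays; Prrx1 goes down along all 4 lines, and Twist1, Twist2, Tcf4 and Tcf7l2 go up along all 4.

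Prrx1 is the paired-related homeobox gene whose limb enhancer drives the Cre of these mice. Its level was 9.94, 10.16, 10.53 and 10.30 on control arrays 1 to 4 and 9.27, 9.32, 10.14 and 9.95 on Nf1Prx1 arrays 1 to 4. The mutants with numbers 1 and 2 were far below every control, while the highest mutant lay above control 1, so the groups overlapped. The mean went from 10.23 ± 0.25 to 9.67 ± 0.44 (SD, n = 4), 1.48-fold lower, with a log2 difference of -0.56 (SE 0.22, limma adjusted p = 0.306). It fell in the paired fit (SE 0.11, limma adjusted p = 0.0252), and was lower in 4 of 4 same-numbered pairs, as were 21.3% of all genes, by differences of -0.67, -0.85, -0.39 and -0.35. That call ended when the arrays numbered 1, 3 or 4 were left out of the paired fit (limma adjusted p = 0.0724, 0.0700 and 0.0804), and held without those numbered 2 (0.0469). Its relative Prrx2 did not follow it, with 7.46, 7.55, 7.15 and 7.63 on control arrays 1 to 4 and 7.55, 7.62, 7.70 and 7.61 in Nf1Prx1 1 to 4. The mutant arrays were close together and the control arrays spread around them, with a log2 difference of 0.17 (SE 0.11, limma adjusted p = 0.573, paired 0.405). It was 0.068 without control 3, and 0.043 in the paired fit without number 3.

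Twist1 and Twist2 encode basic helix-loop-helix factors that hold mesenchymal cells back from differentiating, and cells with Twist2 also act as a progenitor pool in adult muscle. Twist2 had levels of 7.73, 7.68, 7.44 and 7.73 on control arrays 1 to 4 and of 8.30, 7.76, 7.80 and 7.87 on Nf1Prx1 arrays 1 to 4. It was the only one of the 10 factors whose groups did not overlap, with every mutant above every control, as were 2.58% of all genes, while 6.04% had every mutant below every control. The difference was 0.29 (SE 0.14, limma adjusted p = 0.396, paired 0.133), or 1.22-fold, and was 0.17 without Nf1Prx1 1. The gap between the highest control and the lowest mutant was small against that between Nf1Prx1 1 and the other mutants. Twist1 was at 7.65, 7.15, 6.999 and 7.07 in controls and at 8.13, 7.30, 7.28 and 7.15 in mutants, with both number 1 arrays highest in their groups. Its difference of 0.25 (SE 0.23, limma adjusted p = 0.705, paired 0.154) was 0.02 without Nf1Prx1 1. Both Twist genes were higher in 4 of 4 pairs, as were 11.8% of all genes.

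Osr1 and Osr2 encode zinc finger proteins of the odd-skipped family, and Osr1 marks embryonic precursors of fibro-adipogenic progenitors. Osr1 was at 8.78, 7.94, 8.44 and 8.31 in controls 1 to 4 and at 8.64, 8.54, 8.50 and 8.98 in Nf1Prx1 1 to 4. Mutants were higher on average by 0.30 (SE 0.18, limma adjusted p = 0.515, paired 0.261), and control 1 lay above 3 of the mutants. The difference was 0.16 without control 2 and 0.20 without Nf1Prx1 4. Osr2 had the smallest difference of the 10, at -0.07 (SE 0.10, limma adjusted p = 0.842, paired 0.701), with controls from 7.53 to 7.70 and mutants from 7.44 to 7.80. With single arrays left out the Osr2 difference lay between -0.14 and -0.02.

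Tcf7l2, the high mobility group factor that joins beta-catenin at Wnt target genes, had levels of 8.72, 8.80, 9.10 and 8.81 in controls and 9.56, 9.02, 9.31 and 9.45 in mutants. Nf1Prx1 1, 3 and 4 were above all controls, and Nf1Prx1 2 was just below control 3. The mean went from 8.86 ± 0.17 to 9.34 ± 0.23 (SD, n = 4), 1.39-fold higher, with a difference of 0.48 (SE 0.14, limma adjusted p = 0.188, paired 0.0593). This was the smallest p of the 10 factors in the unpaired fit. Tcf4, which encodes the E protein E2-2, was at 9.79, 9.86, 10.25 and 10.12 in controls and at 10.21, 10.03, 10.46 and 10.59 in mutants. Its difference was 0.32 (SE 0.15, limma adjusted p = 0.402, paired 0.0735), with overlap between the groups. Both were higher in 4 of 4 pairs, and both passed in the paired fit after quantile normalization (limma adjusted p = 0.0293 for each), a setting added after the data were seen. Over the 8 arrays Tcf4 and Tcf7l2 correlated at 0.80, a description of arrays that share groups and tissue make-up.

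Meox1 and Meox2 are homeobox genes of the somite, and Meox2 acts in muscle precursors of the limb. Meox1 had levels of 7.96, 7.25, 7.59 and 7.50 on control arrays 1 to 4 and of 7.61, 7.93, 8.60 and 8.64 on Nf1Prx1 arrays 1 to 4. Meox2 was at 9.55, 9.23, 9.34 and 9.46 in controls and at 9.69, 9.15, 10.29 and 10.34 in mutants. For both genes Nf1Prx1 3 and 4 stood above every control, while Nf1Prx1 1 and 2 lay in or near the control range. The difference was 0.62 for Meox1 (SE 0.25, limma adjusted p = 0.321, paired 0.140), the largest of the 10 in size, and 0.47 for Meox2 (SE 0.25, limma adjusted p = 0.442, paired 0.155). The Meox2 difference was 0.71 without Nf1Prx1 2, 0.34 without Nf1Prx1 3 and 0.32 without Nf1Prx1 4. Without the arrays numbered 1 the paired difference of Meox1 was 0.95 (limma adjusted p = 0.0190), and with array weights the unpaired one was 1.06 (limma adjusted p = 0.00402). These weights were 2.24 and 4.42 for Nf1Prx1 3 and 4, and 0.35 and 0.27 for Nf1Prx1 1 and 2. Controls 1 to 4 had 0.36, 1.05, 0.76 and 3.73. Among the mutants the weighted fit thus rests mostly on Nf1Prx1 3 and 4. With those weights 5 factors passed, all higher (Osr1, Tcf4, Tcf7l2, Meox1 and Meox2), where 15.4% of all genes passed and 7.14% toward higher levels.

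For the Meox genes the split of the mutants went with Xist. On the 4 arrays with high Xist the difference was 1.25 for Meox1 and 0.97 for Meox2, and on the 4 with low Xist it was -0.000335 and -0.02. Osr1 differed by 0.62 and -0.02, but there the controls were split (7.94 and 8.31 with high, 8.78 and 8.44 with low Xist) and the mutants were not. Prrx1 had the opposite layout, with -0.18 on arrays with high and -0.94 on those with low Xist. Tcf7l2 was similar in both, at 0.57 and 0.38. These are means of 2 against 2 arrays. A limma fit of the interaction over all genes gave 1.25 (SE 0.26, unadjusted p = 0.00206, adjusted p = 0.690) for Meox1, 0.99 (SE 0.28, unadjusted p = 0.0100, adjusted p = 0.690) for Meox2 and 0.76 (SE 0.28, unadjusted p = 0.0327, adjusted p = 0.690) for Prrx1. Among the other factors the smallest unadjusted p of this fit was 0.0785, for Osr1. The fit was not planned and Xist class was added after the data were seen, so these p values are descriptive. No factor passed after adjustment, 0.0% of all genes did, and 6.34% of all genes had an unadjusted p under 0.05. The low Xist mutants, Nf1Prx1 1 and 2, also had the lowest muscle fibre marker levels, at 12.82 and 13.18 against 13.36 to 13.54 on the other 6 arrays, so sex and tissue make-up cannot be told apart here. With Xist class as a block, 0 of the 10 factors passed, and 0 of all 19938 genes did, so this count says nothing particular about the factors.

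**Figure D2:**
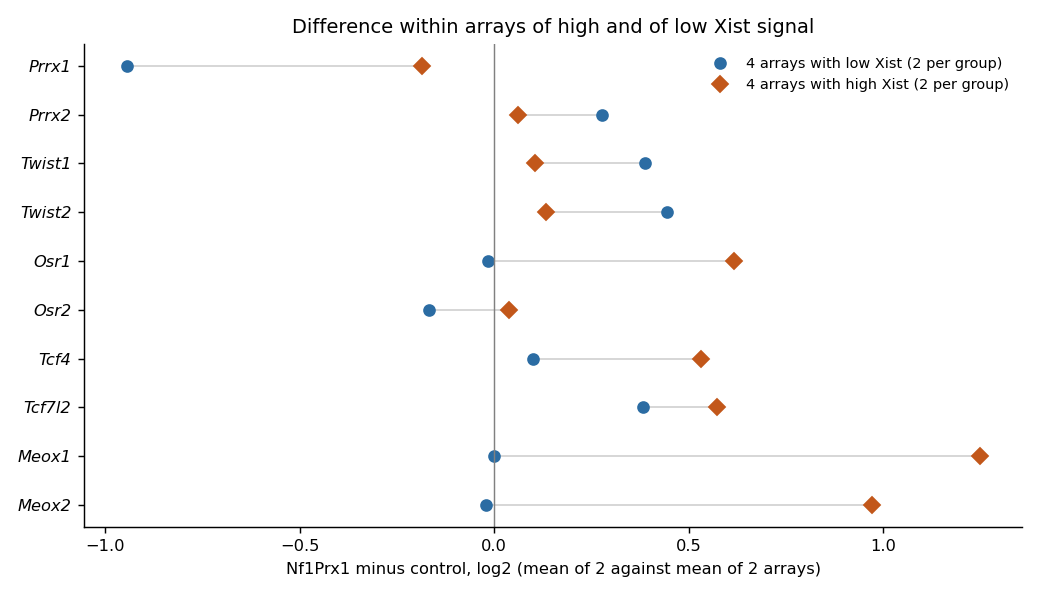
Difference between Nf1Prx1 and control triceps for each factor on the log2 scale (horizontal axis), computed within the 4 arrays with high Xist and within the 4 with low Xist. Meox1 and Meox2 lie near 0 in the low Xist arrays and at 1.25 and 0.97 in the high Xist arrays, while Prrx1 is at -0.94 and -0.18.

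Many of these factors are known from connective tissue cells, and some markers of those cells rose in the mutants. Which cells made the factors in these muscles was not measured. Of 15 measured fibroblast and fibro-adipogenic progenitor markers 6 rose, 0 fell and 9 did not pass. Of all genes 3.36% rose and 5.0% fell, shares that apply beside the other lists as well. The median difference of the 15 was 0.41, where all genes had -0.04. The means of 3 were lower, namely Pi16 (-0.49, limma adjusted p = 0.0745 paired), Dpp4 (-0.16, 0.617) and Thy1 (-0.03, 0.926), which were chosen after their values were seen. Pdgfra, the receptor by which these progenitors are sorted, rose from 9.62 ± 0.23 to 10.47 ± 0.36 (SD, n = 4; limma adjusted p = 0.0201 paired, 0.139 unpaired), and Gsn, gelsolin, from 11.63 ± 0.22 to 12.40 ± 0.33 (limma adjusted p = 0.00788 paired, 0.144 unpaired). The mean level of the list was 9.62 to 10.37 in controls and 9.87 to 10.51 in mutants, with control 1 within the mutant range. In whole muscle, more cells of a type and more RNA per cell cannot be told apart. Adipocyte markers were at 8.49 to 11.25 in controls and at 10.17 to 12.38 in mutants (7 of 7 rose, among them Cidec from 9.28 to 11.52 and Lipe from 9.73 to 10.88). Macrophage markers were at 8.08 to 8.96 and 8.73 to 9.23 (6 of 10 rose, among them Cd74 from 10.36 to 11.52 and Lgals3 from 8.33 to 9.20). Endothelial markers, cells where Meox2 is also known, were at 9.20 to 9.73 and 9.02 to 9.64, and of 10 only Fabp4, which fat cells share, rose (11.26 to 12.29), with Tie1 at 8.99 and 8.73. Of 8 neutrophil and 5 brown adipocyte markers 0 passed, with Elane at 7.72 and 8.10, Mpo at 7.10 and 7.51, Elovl3 at 5.82 and 6.00 and Cox8b at 13.31 and 13.08. The part of these cells in the levels of the 10 factors was not tested.

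Levels were also set against the mean of the 15 fibroblast markers on the same array. That mean was 0.34 higher in mutants, so by construction the difference of every gene is lower by this amount on the relative scale, and the order of genes is the same on both scales. Relative Prrx1 was -0.42, 0.55, 0.71 and 0.41 in controls 1 to 4 and -1.07, -0.56, -0.19 and -0.57 in Nf1Prx1 1 to 4. Only control 1 was in the mutant range. The difference was -0.91 (SE 0.27, limma adjusted p = 0.0976, paired 0.000200), and 0 of the 10 factors passed in the unpaired fit, where 0.171% of all genes did, 0.0351% higher and 0.135% lower. In the paired fit 1 of 10 passed. The errors of the subtracted mean are shared by all genes, and every factor had the same SE there (0.20). The paired adjusted p values on this scale may therefore be far too small. That fit called 28.7% of all genes, 27.5% lower and 1.25% higher, and the median gene was at -0.38, while the median of the 10 factors was -0.05. On either scale 2.22% of genes had a lower difference than Prrx1. The remaining 9 factors ran from -0.41 for Osr2 (paired limma adjusted p = 0.0920) to 0.28 for Meox1 (0.212), with Tcf7l2 at 0.14 and Twist2 at -0.05. The sign of Twist1, Twist2, Osr1, Tcf4 and Tcf7l2 on this scale changed with single arrays or settings.

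**Figure D3:**
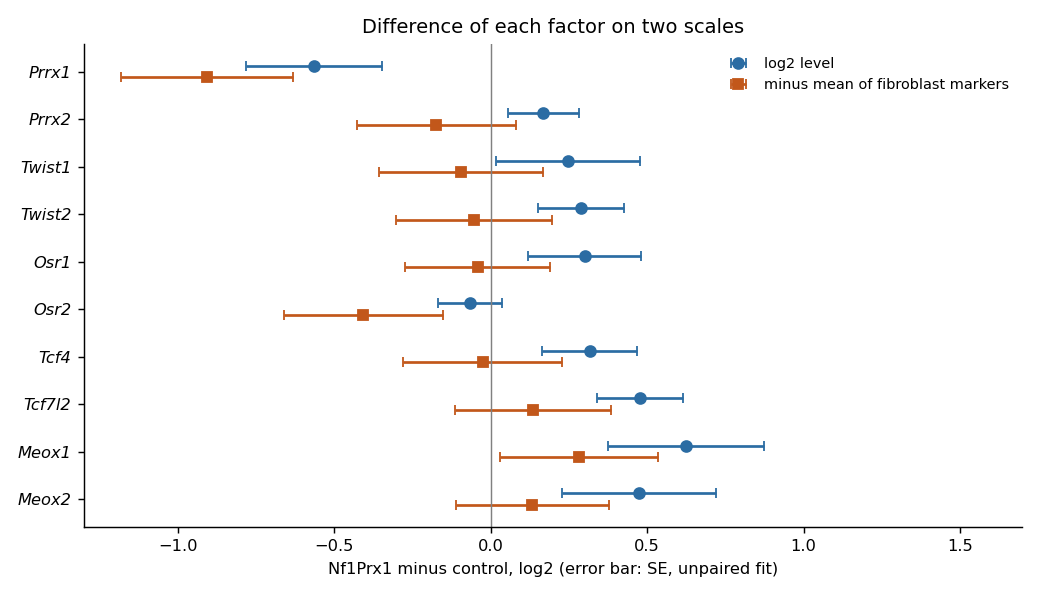
Nf1Prx1 minus control difference of each factor on the log2 scale (horizontal axis) as measured, and after subtracting the mean of 15 fibroblast markers on each array. Error bars are SE of the unpaired fit over 4 arrays per group; the subtraction lowers every gene by 0.34, so Prrx1 goes from -0.56 to -0.91, the median of the 10 factors to -0.05 and that of all genes to -0.38.

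**Figure D4:**
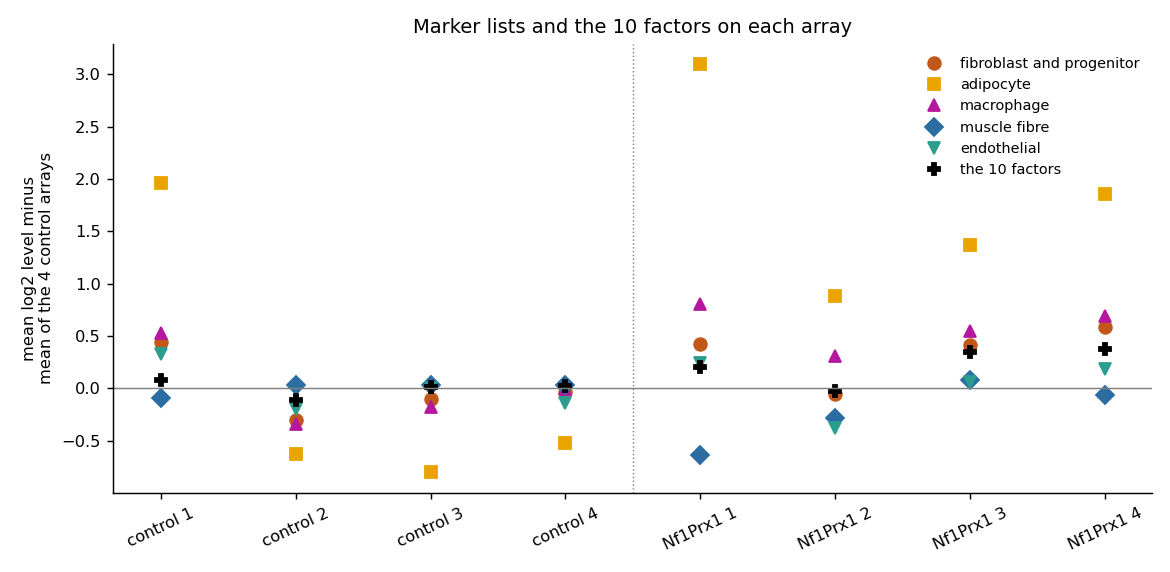
Mean log2 level of 5 marker lists and of the 10 factors on each array (vertical axis), as the distance from the mean of the 4 controls. Control 1 has adipocyte and fibroblast marker levels in the range of the mutants, and muscle fibre markers are lowest on Nf1Prx1 1.

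Below the level of the gene, the authors' deposited table gives group means for 81 probe sets of the 10 factors. From its T values and spreads, each group held 5 arrays, while its notes state 4, so the table cannot be set against the 8 arrays one by one. Of the 81 probe sets, 62 were higher and 19 lower in mutants in the authors' deposited table, where 46.6% of all probe sets were higher and 53.4% lower. At an unadjusted p under 0.05 it held 40 higher and 2 lower probe sets of the factors, against 7.23% and 7.42% of all probe sets. Most of the 40 came from the 2 genes with 22 probe sets each, Tcf4 (16) and Tcf7l2 (15). Meox2 held 4, Meox1 3, and Prrx2 and Twist2 1 each in the authors' deposited table. Prrx1, Twist1, Osr1 and Osr2 held 0. After adjustment over all probe sets 0 of 81 passed, as did 0.12% of all. The minimum and maximum of the groups did not overlap for 13 probe sets of the factors, all higher, in the authors' deposited table, against 1.83% higher and 1.38% lower of all. The authors' list of higher probe sets, in which F was over 20 and no fold below 1.5, held 5 of them, against 0.765% of all, and the list of lower probe sets 0, against 0.367%. Probe sets of a gene read the same transcripts on the same arrays and are not independent.

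All 10 probe sets of Prrx1 were lower in the authors' deposited table, by differences of -0.43 to -0.14. Of these 2 had an unadjusted p under 0.05, and the ranges of the groups overlapped for all 10 in the authors' deposited table. Among genes with 10 or more probe sets there, 4.26% had all of them lower. Its smallest p was at the second probe set, with means of 10.6 for controls and 10.4 for mutants in the authors' deposited table (p = 0.0114, adjusted here 0.209). Prrx2 was uneven, with 2 probe sets higher and 2 lower, and with the third at 7.8 (7.6 to 7.9) against 8.3 (8.1 to 8.7) in the authors' deposited table (p = 0.00279, adjusted here 0.134). Twist2 had 1 probe set at 7.5 in both groups and 1 at 7.6 against 7.9 in the authors' deposited table (p = 0.0195, adjusted here 0.249). Twist1 (2 higher, 1 lower), Osr1 (3 higher) and Osr2 (4 higher, 4 lower) had no probe set with an unadjusted p under 0.05 in the authors' deposited table. The smallest adjusted values of these genes were 0.653 at the third of Twist1, 0.580 at the second of Osr1 and 0.460 at the sixth of Osr2, computed here from the authors' deposited table.

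All 22 probe sets of Tcf4 were higher in the authors' deposited table, by 0.29 to 0.85, and 16 had an unadjusted p under 0.05. Among genes with 20 or more probe sets there, 1.8% had all of them higher. The sixth had a mean of 8.7 (8.6 to 8.8) for controls and 9.5 (9.2 to 9.9) for mutants in the authors' deposited table, 1.81-fold higher (p = 0.000206, adjusted here 0.0652), and the adjacent seventh at 8.6 against 9.4, 1.68-fold higher (p = 0.00143, adjusted here 0.111). These 2 were the probe sets of Tcf4 in the authors' list of higher ones. Tcf7l2 was less even along the gene, with 20 of 22 probe sets higher and differences from -0.26 to 1.30 in the authors' deposited table. The ninth went from 9.4 (9.1 to 9.5) to 10.2 (9.9 to 10.7), 1.80-fold (p = 0.000735, adjusted here 0.0909), and the third from 8.7 to 9.5, 1.69-fold, and both were in the authors' deposited list of higher probe sets. Neighbouring probe sets could differ widely, the first being at 9.4 and 9.5 and the second at 8.0 and 9.3 in the authors' deposited table. The tenth and the nineteenth were the lower ones, at 7.6 against 7.5 and 5.6 against 5.4 in the authors' deposited table. No exon map of the probe sets was used here, so none was assigned to an exon or an isoform.

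By the median over their probe sets, the Meox genes had the largest differences of the 10 at this level. The largest single differences were 1.32, for a probe set of Meox1, and 1.30, for the second of Tcf7l2. The latter overlapped between controls (6.8 to 9.2) and mutants (8.7 to 9.6) in the authors' deposited table (p = 0.0216, adjusted here 0.258). All 3 probe sets of Meox1 were higher in the authors' deposited table, by 0.97 to 1.32, and the first went from 7.5 to 8.5 (p = 0.00685, adjusted here 0.176). All 4 of Meox2 were higher by 0.68 to 0.96, and the fourth went from 9.9 (9.6 to 10.2) to 10.6 (10.4 to 10.8), 1.69-fold, in the authors' deposited table (p = 0.000478, adjusted here 0.0825). That probe set was in the authors' list of higher ones, and none of Meox1 was. The Meox1 median of 1.07 in that table was larger than the cluster difference of 0.62 on the 8 arrays, as the median of 0.84 for Meox2 was against 0.47. For Prrx1 it was smaller in size, -0.34 against -0.56.

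**Figure D5:**
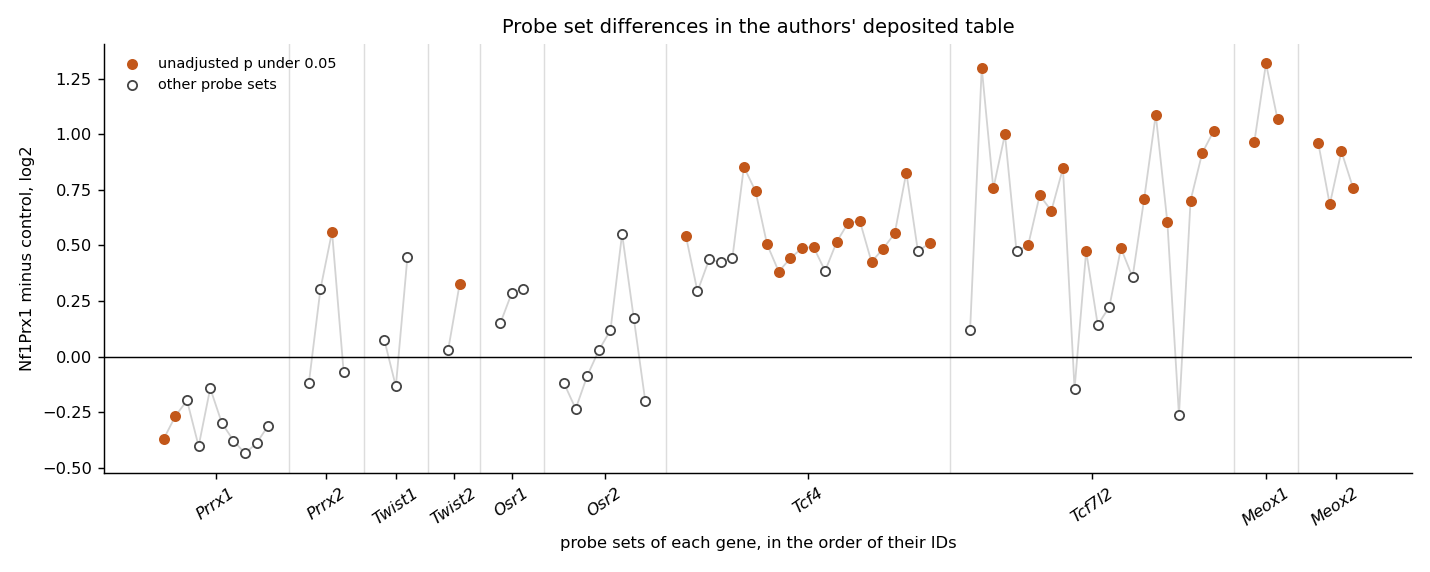
Nf1Prx1 minus control difference on the log2 scale (vertical axis) of each of the 81 probe sets of the 10 factors in the authors' deposited table, in the order of their IDs within each gene. Filled points have an unadjusted p under 0.05; all 10 probe sets of Prrx1 lie below 0, and all of Tcf4, Meox1 and Meox2 above 0.

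Partners of the factors were read from 3 lists, in which 1 of 6, 2 of 14 and 1 of 25 genes passed in the paired fit, where 8.36% of all genes did. Of 6 E proteins and Id inhibitors, which pair with or block Twist and Tcf4 proteins, only Id2 rose, from 8.76 ± 0.69 to 9.94 ± 0.50 (SD, n = 4; limma adjusted p = 0.00493 paired, 0.204 unpaired), with a list median of 0.16. Id3, another inhibitor, went from 7.71 to 8.08 (limma adjusted p = 0.154 paired). Of 14 Tcf/Lef factors and beta-catenin partners, the corepressor Tle4 fell from 9.09 ± 0.40 to 8.52 ± 0.29 (limma adjusted p = 0.0158 paired, 0.284 unpaired), and its relative Tle3, named after its value was seen, rose from 8.37 to 8.93 (limma adjusted p = 0.0314 paired). The list median was 0.01, and Tcf7l1, the relative of Tcf7l2 with the smallest p, went from 8.33 to 8.71 (limma adjusted p = 0.0782 paired). Of 25 other limb mesenchyme factors only Meis2, a homeobox factor of the proximal limb, rose, from 7.31 ± 0.16 to 8.17 ± 0.52 (limma adjusted p = 0.0312 paired, 0.179 unpaired), with a list median of 0.05. Snai2, a zinc finger repressor of mesenchyme, went from 7.39 to 7.80 (limma adjusted p = 0.0791 paired).

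Of 8 tendon markers 0 rose or fell, where 8.36% of all genes did, a share that applies to the lists below too. Scx, the tendon factor scleraxis, was at 7.72 ± 0.13 and 7.46 ± 0.11 (SD, n = 4; limma adjusted p = 0.188 paired) and the matrix protein Comp at 7.86 and 7.48 (0.132). Among 9 satellite cell and myogenic markers, Myod1, the muscle determination factor, fell from 9.06 ± 0.22 to 8.62 ± 0.34 (limma adjusted p = 0.0328 paired, 0.327 unpaired) and Vcam1, an adhesion molecule named after its value was seen, rose, while Myf5 went from 6.94 to 6.56 (0.0719). Of 10 muscle fibre markers 0 passed, with all 10 means lower, where 41.7% of all genes had a higher mean. Among them were Tnni2, fast troponin I, at 13.18 and 12.79 (0.0913), and Mb, myoglobin, at 13.28 and 12.95 (0.213). Of 8 pericyte and smooth muscle markers Cspg4, the NG2 proteoglycan, rose from 8.71 to 9.08 (limma adjusted p = 0.0485 paired) and the channel subunit Abcc9, named after its value was seen, fell (0.0449), with Notch3 at 8.50 and 8.29 (0.202). Of 3 Schwann cell markers 0 passed, with Pmp22 at 11.50 and 12.11 (0.0651) and Mbp at 8.04 and 8.22 (0.289).

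By their pattern over the 8 arrays, the genes most like Prrx1 were Gpd1l (Pearson r = 0.994, Spearman rho = 0.952), 6030458C11Rik (r = 0.989) and Inpp5e (r = 0.989), taken as descriptions from 19938 genes on arrays that share groups and tissue make-up. Twist2 was most like Amotl2 (r = 0.991), Gpr141 (r = 0.979) and Adcy5 (r = 0.977), and Osr1 most like Zfp709 (r = 0.961), Penk (r = 0.959) and Camk2n1 (r = 0.959). Tcf4 was nearest to Adamts10 (r = 0.977), Pld1 (r = 0.964) and Tgfb1i1 (r = 0.962), and Tcf7l2 to Pias3 (r = 0.969), Cplane1 (r = 0.966) and Strn4 (r = 0.963). Meox1 was nearest to Capn6 (r = 0.982), Cd34 (r = 0.971) and Col14a1 (r = 0.966). Meox2 was nearest to Lpar1 (r = 0.986), Id3 (r = 0.975) and Pdpn (r = 0.975). Among the factors themselves, Meox1 and Meox2 correlated at 0.85, Prrx1 and Osr2 at 0.85 and Twist1 and Twist2 at 0.83, while Prrx1 ran against Twist2 at -0.75 and Twist1 at -0.72. The genes nearest to Meox1 included Cd34, a surface marker of progenitors in the fibroblast list, which did not pass in the paired fit (limma adjusted p = 0.124). Id3, near Meox2, is in the list of Id inhibitors and did not pass either (limma adjusted p = 0.154 paired).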

How the data were processed

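Per the submitters' processing notes, the authors made the log2 levels per transcript cluster with RMA in the Affymetrix Expression Console; versions and genome build are not given in the sources used here. The authors also deposited a probe set table with log2 means, unadjusted p values, a ratio of control over mutant, and a signed fold, F and T score from an ANOVA, per the file headers and notes. Recomputed from F, those p values differed by at most 5.89e-06 when 8 residual degrees of freedom were used, and by up to 0.0125 with the 6 that 8 arrays allow.

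Of 35556 clusters, 21789 had 1 gene symbol; symbols were updated by Entrez ID (21698 matched), and the cluster with the highest mean stood for each of 19938 genes. No per-sample column was unused. The comparison used lmFit and eBayes of limma 3.58.1 under R 4.3.3 (two-sided, Benjamini-Hochberg over all genes, threshold 0.05), and fold changes are on the log2 scale. The relative scale subtracts the array mean of 15 fibroblast markers. Its errors are shared by all genes, and its paired fit gave every factor the same SE (0.20), so its adjusted p values may be too small. The deposited p values were adjusted with scipy 1.17.1. The fits were tested on simulated arrays with known changes and independent noise. Those arrays had no shared deviations within pairs, so the test does not check the paired p values of these data. The arrays are labelled as separate animals, and their number limits the precision.

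Same-numbered arrays correlated in their deviations from group means at 0.71, 0.57, 0.39 and 0.30, each above 0.1, so the number was used as a block; no label says what it stands for, and control 3 with Nf1Prx1 4 also reached 0.30. The factors, marker lists and tests were chosen with earlier results of these data known. Named are all 10 factors, the 2 genes of each list with the smallest p in the unpaired fit, the 3 genes nearest in pattern to each factor at or above the median level (7 factors), and each factor's probe set with the smallest p. Alternatives were the block, each array left out, array weights, quantile normalization, a dim gene filter (mean below 6), averaged clusters and, added later, Xist class and 2 further paired settings.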

Additional observations from a re-analysis of the deposited data

Results flagged for a closer look

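Twist1 on Nf1Prx1 1 had a level of 8.13, far from the other 3 mutants at 7.15 to 7.30 for the spread of 4 arrays. Such a gap was looked for in 20 groups of 4 values (10 factors in 2 groups), and chance gives about 1 in 20. The same array had the highest neutrophil (9.64) and adipocyte (12.38) marker means of the 8, and their part in the Twist1 level was not tested.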

How the results depend on the processing

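The unpaired fit called 0 genes and 0 factors (2709 genes and 3 factors at an unadjusted p under 0.05), and leaving out single arrays gave 0 to 3 genes and 0 factors. The replicate block gave 1667 genes and 1 factor (Prrx1). With the block and without number 1, 2, 3 or 4 it gave 719, 1202, 206 and 50 genes and 1 (Meox1), 1 (Prrx1), 0 and 0 factors. Array weights, highest for control 4 and for Nf1Prx1 3 and 4, gave 3070 genes and 5 factors. Leaving out both arrays numbered 1 gave 96 genes and 0 factors, and quantile normalization 2 and 0. The block with quantile normalization gave 1482 genes and 3 factors (Prrx1, Tcf4, Tcf7l2), and with dim genes left out 1748 and 1. The direction of all 10 measured differences was the same under all 21 alternatives (18 preset, 3 added), with Prrx1 from -0.72 to -0.33 and Meox1 from 0.45 to 1.06. With all 8 arrays, a block, the dim gene filter or averaged clusters left these differences unchanged, so their direction could not change there. The block also repeated the differences of quantile normalization and of leaving out both number 1 arrays. Relative to fibroblast markers, 0 factors passed unpaired and 1 with the block, where 0.171% and 28.7% of all genes passed. Shares of all genes are not given here for the other settings on this scale, so their counts cannot be weighed. With single arrays left out 0 to 2 factors passed (Prrx1 and Osr2 without control 1, Prrx1 without Nf1Prx1 2). With the block and a number left out 1 to 3 passed, and without both number 1 arrays 1. Array weights gave 8 factors (2 higher, 6 lower) and quantile normalization 1. The block with quantile normalization gave 2, and with dim genes left out 1. The sign on that scale changed with single arrays left out for Twist1 (-0.291 to 0.0904), Twist2 (-0.172 to 0.0600), Osr1 (-0.133 to 0.0351), Tcf4 (-0.245 to 0.0891) and Tcf7l2 (-0.0574 to 0.250). With the block and a number left out it changed for Twist1 (0.0549 without number 4), Twist2 (0.0902 without 4), Osr1 (0.0928 without 3), Tcf4 (0.0661 without 3, 0.0185 without 4) and Tcf7l2 (-0.107 without 1, as without both number 1 arrays unpaired). Tcf4 was at 0.0122 after quantile normalization, with or without the block. Prrx1 had the same sign in all 21, from -1.15 to -0.66, with its value again unchanged by a block, the dim gene filter or averaged clusters. Of the 14 other lists, 0 genes passed unpaired, 28 with the block (also with quantile normalization, and with dim genes left out), 25, 25, 9 and 2 with the block and without number 1, 2, 3 or 4, 8 without both number 1 arrays and 49 with array weights. For the probe sets of the factors, adjustment left 0 in the authors' deposited table, also without dim ones, and the limits of the authors' lists 5. The cause of these shifts was not tested.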
